A study of Mus musculus with 9 samples.

Results

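The transcripts described here are those that the array names by genomic position alone, as a chromosome, a start, an end and the letter F or R (mouse genome build mm9). They were read by probes with such names on chromosomes 1 to 19 whose spots passed the scanner software's call of well above background on every one of the 3 arrays of some ploidy. Of 15604 probes with such names on these chromosomes, 4262 met that rule and were kept (27.3%), and they lay in 1867 of 3387 regions. A further 6 met the rule but were left out, because the scanner software flagged their spots as outliers on an array. The working description of these probes is long intergenic transcripts. The files do not say that a region is intergenic or noncoding, no mm9 annotation was used, and the regions ran from 0.062 kb to 7128 kb in length with a median of 7.45 kb, so not every region was long. They are therefore called coordinate-named regions. F and R are read here as the strand of the transcript, which the files do not state in words.

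Long intergenic noncoding RNAs are transcribed from their own promoters between protein-coding genes, and many are capped, spliced and polyadenylated. Many in mouse were first mapped from chromatin marks of active promoters and transcribed bodies, which give a span of chromosome and not an exon structure, and arrays then tiled such spans with several probes on one or both strands. As a class they are expressed at lower levels and in fewer tissues than protein-coding genes. Known members act on chromatin, on neighbouring genes or in nuclear bodies, and p53 itself switches on some of them.

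Mouse embryonic cells of genotype p53-/- were compared at 3 ploidies, with 3 triploid, 3 tetraploid and 3 diploid clones and 1 array for each. All 9 clones carry the p53 deletion, so no clone with p53 was part of the comparison. The genotype field gives p53 for each clone; the longer descriptions of 8 clones print a different number there, which was taken for a typing slip. The cells were grown in serum-supplemented minimal essential medium and received no treatment. The labels give no embryo or culture of origin for a clone, so p-values measure only the spread between these clones.

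Of 13 fibroblast and mesenchyme markers with a probe, 11 were well above background on all 9 arrays, against 0 of 4 muscle and 0 of 4 blood markers with a probe. Of 5 neural markers 4 were above background on all 9 arrays, as were 2 of 7 pluripotent and germ, 1 of 6 epithelial and 2 of 4 endothelial markers. Processed signal at the 75th percentile ranged over the arrays from 215 to 407 units. Diploid clone 1 was hybridised on a slide of its own and the other 8 arrays shared a slide. In these bulk samples, fewer expressing cells and less RNA per cell cannot be told apart.

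Coordinate-named regions were detected less often than the rest of the array. On single arrays, 28.7% to 34.0% of their probes were well above background in triploid clones, 25.5% to 31.7% in tetraploid clones and 28.2% to 32.8% in diploid clones. Among the other probes of the array the share lay between 51.0% and 57.0%. The ranges of the 3 ploidies overlapped. Of the 4262 probes kept, 3091 (72.5%) were above background on all 9 arrays. A further 638 passed through 1 ploidy alone, 278 of them through the triploid, 98 through the tetraploid and 262 through the diploid clones; such a probe had to differ between ploidies to some degree. The highest log2 level over the 9 arrays, relative to an array's 75th percentile, had a median of -2.49 in these 638 probes. It was -2.79 in the 883 probes just outside the rule, which were well above background on 2 of 3 arrays at best.

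**Figure D1:**
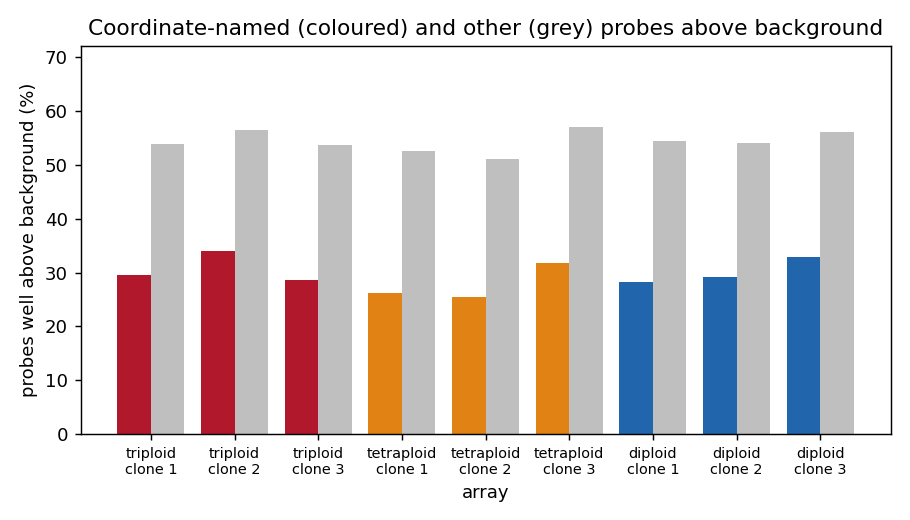
Share of probes well above background on each of the 9 arrays, in percent, for coordinate-named probes on chromosomes 1 to 19 (coloured by ploidy) and for all other probes that are not controls (grey). The coloured bars lie between 25.5% and 34.0% and the grey bars between 51.0% and 57.0%.

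Both strands were represented alike, with 2125 probes kept on F and 2137 on R. Regions of the shortest quartile, up to 0.794 kb, kept 19.6% of their probes, against 28.2% to 28.7% in the 3 longer quartiles. Levels are log2 signals after the 75th percentile of each array was subtracted, so 0 is that percentile. On this scale the kept probes had median levels of -1.59, -1.73 and -1.84 in triploid clones 1, 2 and 3, of -1.86, -1.72 and -2.23 in tetraploid clones, and of -1.86, -1.62 and -1.69 in diploid clones. Tetraploid clone 3 was the lowest array, and the rest lay within a narrow band that did not separate the ploidies. Pearson correlations between arrays over the 4262 probes, a description over probes that share libraries, were 0.93 to 0.97 among triploid clones, 0.94 to 0.96 among tetraploid clones and 0.95 to 0.96 among diploid clones. Between triploid and tetraploid clones they were 0.88 to 0.94, between triploid and diploid clones 0.89 to 0.94, and between tetraploid and diploid clones 0.91 to 0.95.

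Between triploid and diploid clones, 48 coordinate-named probes in 36 regions passed the test, 15 of them higher and 33 lower in triploid clones. A call means an adjusted p under 0.05 in limma's moderated test, fitted over all 21797 features of the array and adjusted by Benjamini-Hochberg. The 48 calls are 1.13% of the 4262 probes, while 1.84% of all features were called, 0.615% higher and 1.22% lower, so the share was below the background. Of the 33 probes that were lower, 22 were not above background on any triploid array, and of the 15 that were higher, 6 were not above background on any diploid array. Of the calls, 29 came from probes that had passed the filter only through the ploidy where they were high, 11 of the 15 through triploid and 18 of the 33 through diploid clones, and such probes had to differ. The median difference over the kept probes was 0.09 on the log2 scale, beside 0.10 over all features. The triploid and diploid clones did not overlap at any of the 48 called probes; over the kept probes this held for 20.6%, against 28% of all features. The count depended on single arrays, as did the count over all features. Leaving out triploid clone 1 gave 171, beside 1434 of all features (6.58%). Leaving out triploid clone 2 or clone 3 gave 9 each, beside 61 (0.28%) and 75 (0.34%) of all features. The count was 22 without tetraploid clone 1, and 12, 22 and 8 without diploid clones 1, 2 and 3 in turn. Over all features the shares in those fits were 0.71%, 0.37%, 0.82% and 0.37%. These fits used the same kept probes, so they did not repeat the filter.

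**Figure D2:**
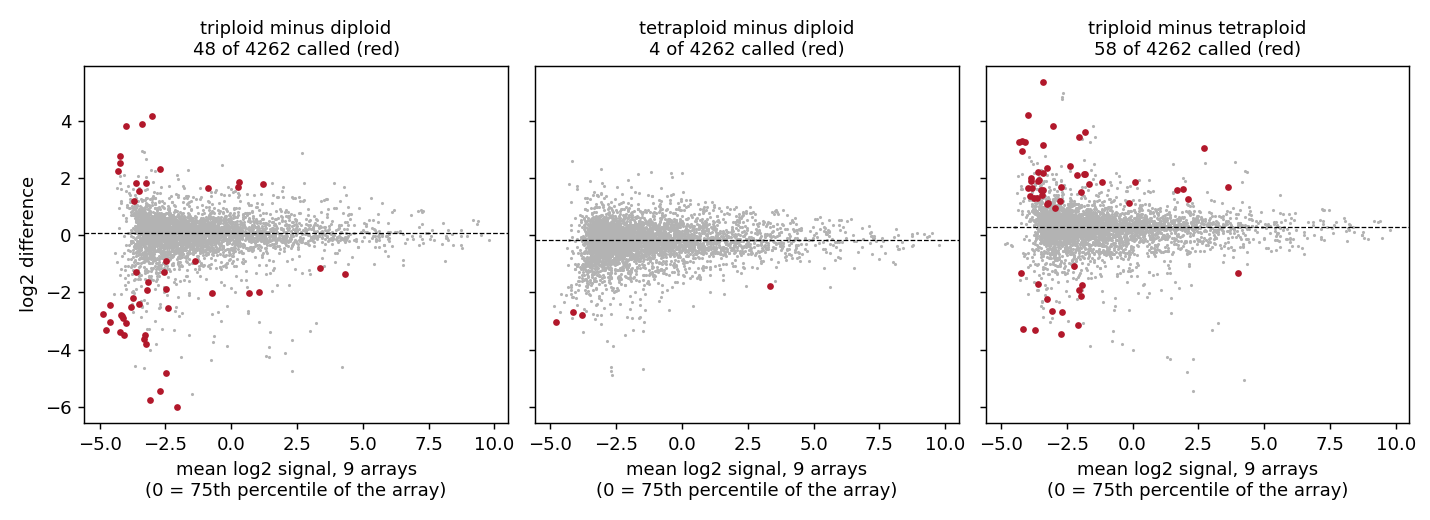
Log2 difference of each of the 4262 coordinate-named probes (y axis) against its mean log2 level over 9 arrays (x axis, 0 is the 75th percentile of an array), in the 3 comparisons; red points passed the test and the dashed line is the median. The medians are 0.09 for triploid minus diploid, -0.18 for tetraploid minus diploid and 0.29 for triploid minus tetraploid, and most red points lie at low mean levels.

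The largest loss in triploid clones was in the region chr13:15947521-15999246 on strand F, 51.7 kb long. Its probe A_30_P01023276 read -5.65, -4.92 and -4.81 in triploid clones, -0.66, -2.58 and -2.72 in tetraploid clones and 0.73, 1.13 and 0.79 in diploid clones. None of the 3 triploid clones was well above background there, all 3 diploid clones were above the 75th percentile, and the tetraploid clones lay between without overlap. All 4 kept probes of that strand, of 5 on the array, were lower in triploid than in diploid clones, by -6.01 (SE 0.51), -5.76 (SE 0.56), -5.44 (SE 0.57) and -4.82 (SE 0.68) on the log2 scale. Because no triploid array was above background, these are bounds of at least 24.3-, 12.2-, 13.5- and 11.05-fold lower, with adjusted p = 0.00152, 0.00387, 0.00425 and 0.0155. The probe with the difference of -4.82 kept its call in 6 of 9 fits that left out 1 array, and the other 3 in 9 of 9. Among these, the probe with -5.76 had passed the filter only through diploid clones, where it had to be high. Against tetraploid clones 3 of the 4 probes were lower in triploid clones, by -3.14, -2.68 and -2.64, or at least 3.33-, 2.00- and 1.40-fold, with adjusted p = 0.0193, 0.0441 and 0.0453; these kept their calls in 7, 1 and 3 of the 9 fits. A background correction by normexp, which pulls dim signals together, kept the 4 calls against diploid clones at -2.88 to -1.90 and ended the 3 against tetraploid clones (adjusted p = 0.254, 0.383 and 0.424). None of the 5 R probes was kept.

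On chromosome 5, the region chr5:77239012-77271614 on F, 32.6 kb long, was lower in triploid clones at all 3 of its probes. Probe A_30_P01026474 read -5.48, -4.68 and -5.61 in triploid clones, -3.11, -2.51 and -3.50 in tetraploid clones and -1.54, -1.14 and -1.64 in diploid clones. The ploidies did not overlap, with the tetraploid clones between the others. The differences from diploid clones were -3.82 (SE 0.34), -3.37 (SE 0.29) and -2.77 (SE 0.44), or at least 4.87-, 2.47- and 1.54-fold lower, with adjusted p = 0.00176, 0.00152 and 0.0251. The first 2 kept their calls in 9 of 9 fits without 1 array, the last in 4. The neighbouring region chr5:77084398-77086144 on R, 1.75 kb long, was lower at its 1 kept probe by -2.44 (SE 0.51, at least 1.55-fold, adjusted p = 0.0497) and kept its call in 1 of 9 fits. That probe had passed the filter only through diploid clones, where it had to be high. Under normexp the difference of -3.82 became -1.14 and stayed called (adjusted p = 0.0380), while those of -3.37, -2.77 and -2.44 became -0.90, -0.87 and -0.52 and were not called (adjusted p = 0.0648, 0.0901 and 0.220). Both regions lie within 187 kb, and this was the only group of neighbouring regions, with gaps of at most 500 kb, that held 3 or more called probes from 2 or more regions in this comparison.

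On chromosome 10, the region chr10:8606683-8665783 on R, 59.1 kb long, was lower at 3 of 4 kept probes. Probe A_30_P01018341 read -4.75, -4.65 and -5.82 in triploid clones, -2.59, -4.26 and -2.74 in tetraploid clones and -1.91, -1.06 and -1.83 in diploid clones. The triploid clones were the lowest 3 and the diploid clones the highest 3. The 3 called differences were -3.48 (SE 0.50), -3.48 (SE 0.58) and -2.51 (SE 0.33), or at least 4.35-, 2.80- and 2.45-fold lower, with adjusted p = 0.0167, 0.0282 and 0.0114. The remaining kept probe differed by 0.37 and was not called, so the probes of this strand disagreed. The calls held in 5, 4 and 7 of 9 fits without 1 array. The 3 called probes had passed the filter only through diploid clones, where they had to be high. Under normexp the 3 differences were -1.02, -0.86 and -0.53, and none was called (adjusted p = 0.0571, 0.0703 and 0.268).

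The other losses among the 10 largest rested on 1 called probe each. At chr13:97700327-97700876 on F the called probe read -3.96, -5.98 and -5.78 in triploid clones, -2.79, -3.26 and -3.34 in tetraploid clones and -2.05, -1.99 and -0.80 in diploid clones. The triploid clones were below the others at every value, by -3.63 (SE 0.54) or at least 4.31-fold from diploid clones (adjusted p = 0.0196), and the call held in 5 of 9 fits. The other 2 kept probes there differed by -2.50 and -0.34, uncalled. At chr10:93975406-93977476 on R the called probe was lower by -3.31 (SE 0.40), at least 2.10-fold (adjusted p = 0.00832), with its call in 9 of 9 fits. Both called probes had passed the filter only through diploid clones, where they had to be high. Under normexp both calls ended, at -1.13 (adjusted p = 0.0680) and -0.84 (adjusted p = 0.0991). Outside the 10 largest, and chosen after their values were seen, chr1:134167181-134181386 on R had 2 called probes (-2.90 and -1.87), as did chr18:61809278-61825191 on R (-2.03 and -1.97).

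Among probes that were higher in triploid than in diploid clones, chr1:92412246-92423471 on F, 11.2 kb long, had the largest difference. Its probe A_30_P01019652 read -0.70, -0.05 and -0.29 in triploid clones, -4.40, -4.57 and -3.58 in tetraploid clones and -5.14, -2.90 and -5.49 in diploid clones. The triploid clones lay above all others, and 1 of 3 arrays of each other ploidy was above background. The probe had thus passed the filter only through triploid clones, where it had to be high. The probe was higher by 4.17 (SE 0.61, adjusted p = 0.0186) than in diploid and by 3.84 (SE 0.61, adjusted p = 0.0178) than in tetraploid clones, with calls in 5 of 9 fits each. The other 3 kept F probes differed from diploid clones by 0.21, 0.54 and 2.92, uncalled, and the kept R probe by -0.26.

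The region chr19:53517903-53540753 on R, 22.9 kb long, was higher in triploid clones at 2 probes against diploid and at 3 against tetraploid clones. Probe A_30_P01029324 read -1.68, 0.63 and 0.13 in triploid clones, -5.22, -5.55 and -6.26 in tetraploid clones and -4.24, -3.55 and -4.87 in diploid clones. Every triploid array was above background and none of the other 6 was. Like it, the other called probes of this strand had passed the filter only through triploid clones, where they had to be high. The called differences from diploid clones were 3.91 (SE 0.59) and 3.82 (SE 0.59), at least 11.1- and 5.57-fold higher, with adjusted p = 0.0208 and 0.0220. Those from tetraploid clones were 5.37 (SE 0.59), 4.22 (SE 0.59) and 3.15 (SE 0.69), at least 11.4-, 5.75- and 5.53-fold higher, with adjusted p = 0.00451, 0.0115 and 0.0491. The largest of them held in 9 of 9 fits without 1 array, the next in 7 and the last in 2, and both calls against diploid clones held in 5. Under normexp the 3.82 became 1.25 and was not called (adjusted p = 0.0550). The remaining kept R probe differed by 0.67 and 0.03 from diploid and tetraploid clones, and the 3 kept F probes by 0.04 to 0.19 and -0.02 to 0.20, none of them called.

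The region chr3:146515333-146557069 on F, 41.7 kb long, was well above background on all 9 arrays at its 3 probes. Probe A_30_P01031360 read 0.74, 1.70 and 1.09 in triploid clones, 0.33, 0.74 and 0.21 in tetraploid clones and -0.32, -0.92 and -0.82 in diploid clones. The triploid and diploid clones did not overlap, and the tetraploid clones lay between them with clone 2 level with triploid clone 1. All 3 probes were higher in triploid than in diploid clones, by 1.86 (SE 0.30), 1.79 (SE 0.33) and 1.70 (SE 0.29), with adjusted p = 0.0265, 0.0383 and 0.0314. Each kept its call in 3 of 9 fits without 1 array. Tetraploid clones were higher than diploid clones by 1.03 to 1.11, uncalled.

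The other single probes among the largest gains were chr11:53596919-53672731 on R, chr4:145450600-145461600 on R, chr14:77077374-77086910 on F, chr12:111617728-111665403 on R and chr17:6806500-6861042 on F. They were higher in triploid than in diploid clones by 2.76, 2.52, 2.31, 2.23 and 1.83, with adjusted p of 0.0400, 0.0495, 0.0167, 0.0289 and 0.0490. No diploid array was above background for the probes on chromosomes 11, 4 and 12, which gives at least 2.04-, 2.84- and 2.45-fold. All of these single probes had passed the filter only through triploid clones, where they had to be high. They kept their calls in 3, 3, 6, 3 and 1 of 9 fits, and none was called under normexp, where the differences were 0.57 to 0.82 (adjusted p of 0.0792 to 0.259). Against tetraploid clones those on chromosomes 4, 14, 12 and 17 were also called higher, by 3.30, 1.69, 3.27 and 2.23; the 3.27 of chr12:111617728-111665403 held in 9 of 9 fits (at least 2.53-fold, adjusted p = 0.00507). Under normexp only that on chromosome 4 stayed called among these 4 (0.97, adjusted p = 0.0452); that on chromosome 12 was 0.94 (adjusted p = 0.0787).

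Between triploid and tetraploid clones, 58 probes in 44 regions were called, 44 higher and 14 lower in triploid clones. That is 1.36% of the kept probes, against 2.7% of all features, 1.09% higher and 1.61% lower. Among all features 237 were higher and 352 lower, while among the 5101 other features without a gene name 77 were higher and 42 lower. The median difference on the log2 scale was 0.29 for the kept probes, 0.26 for the other features without a gene name and 0.17 for all features. Of the 44 higher probes, 22 were not above background on any tetraploid array, and 22 had passed the filter only through triploid clones, where they had to be high; 3 of the 14 lower probes had passed only through tetraploid clones. The clones did not overlap at 23.3% of the kept probes, against 26% of all features. The result moved when tetraploid clone 3, whose median level was the lowest, was left out. Without it 11 probes were called, 5 higher and 6 lower, beside 140 of all features (0.64%). The median difference was then 0.11 for the kept probes and 0.05 for all features. Leaving out triploid clones 1, 2 and 3 in turn gave 129 (69 higher, 60 lower), 10 and 8 calls. Of all features, 6.02%, 0.62% and 0.54% were called in those fits. Tetraploid clones 1 and 2 left out in turn gave 11 and 131, and diploid clone 1 left out gave 28. The matching shares of all features were 0.67%, 4.21% and 1.30%. How far the low level of tetraploid clone 3 accounts for these differences was not tested.

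The region chr2:115900355-115900904 on F, 0.55 kb long, was higher in triploid than in tetraploid clones at all 3 of its probes. Probe A_30_P01031324 read -0.07, -0.09 and 0.04 in triploid clones, -4.67, -2.76 and -3.56 in tetraploid clones and -2.17, -0.77 and -2.12 in diploid clones. The triploid clones were nearly equal and above all others, and the tetraploid clones were the lowest 3. The differences were 3.62 (SE 0.51), 3.44 (SE 0.48) and 2.37 (SE 0.31), with adjusted p = 0.0116, 0.0117 and 0.00796, and they kept their calls in 8, 7 and 9 of 9 fits. No tetraploid array was above background for the third, which was at least 3.74-fold higher. The third had passed the filter only through triploid clones, where it had to be high. That probe was also higher than in diploid clones, by 1.82 (SE 0.31, adjusted p = 0.0289), with its call in 4 of 9 fits. Under normexp these last 2 calls ended, at 0.90 (adjusted p = 0.0518) against tetraploid and 0.60 (adjusted p = 0.149) against diploid clones.

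Regions with clear signal on every array were also among those higher in triploid than in tetraploid clones. At chr11:119254413-119296960 on F, 42.5 kb long, probe A_30_P01022005 read -0.49, 0.38 and -0.18 in triploid clones, -1.85, -1.43 and -2.59 in tetraploid clones and -2.03, -1.03 and -1.25 in diploid clones. The triploid clones stood above the rest, and the tetraploid and diploid clones overlapped. Its 3 probes were higher than in tetraploid clones by 2.15 (SE 0.42), 2.11 (SE 0.37) and 1.86 (SE 0.39), with adjusted p = 0.0343, 0.0258 and 0.0423, and kept their calls in 5, 5 and 2 of 9 fits.

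At chr5:35975265-35982561, 7.30 kb long, the strands differed in the comparisons with triploid clones but not between tetraploid and diploid clones. On F, probe A_30_P01024606 read 4.82, 4.30 and 4.20 in triploid clones, 2.91, 3.32 and 2.05 in tetraploid clones and 3.58, 3.65 and 3.88 in diploid clones. Triploid clones were highest, diploid clones next and tetraploid clones lowest, with no overlap. Of the 4 F probes 3 were called higher than in tetraploid clones, by 1.68 (SE 0.33), 1.63 (SE 0.35) and 1.58 (SE 0.30), with adjusted p = 0.0370, 0.0457 and 0.0314 and calls in 3, 1 and 4 of 9 fits. From diploid clones the 4 F probes differed by 0.55 to 0.74 and the 4 R probes by -2.01 to -1.06, none of them called. From tetraploid clones the R probes differed by -0.66 to 0.10, also uncalled. Tetraploid clones were lower than diploid clones on both strands, by -1.08 to -0.94 on F and by -1.59 to -0.65 on R, uncalled.

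Lower in triploid than in tetraploid clones were the overlapping regions chr9:78104935-78116974 and chr9:78107225-78118850 on F. Probe A_30_P01028766 of the second region read -5.51, -5.48 and -3.10 in triploid clones, -1.07, -0.91 and -1.75 in tetraploid clones and -2.55, -2.20 and -1.81 in diploid clones. The triploid clones were lowest and the tetraploid clones highest. The 3 kept probes of both regions were lower by -3.45 (SE 0.60), -1.93 (SE 0.43) and -1.75 (SE 0.33), with adjusted p = 0.0248, 0.0499 and 0.0323, and kept their calls in 6, 1 and 4 of 9 fits. Under normexp the first stayed called (-1.19, adjusted p = 0.0360) and the others did not (adjusted p = 0.109 and 0.0911). These probes may read the same transcript, since the regions share most of their length.

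At chr6:126766225-126771309 on F, 5.09 kb long, the 1 kept probe read -3.38, -2.59 and -2.42 in triploid clones, -0.56, -0.72 and -0.74 in tetraploid clones and -2.28, -2.39 and -2.41 in diploid clones. The tetraploid clones stood apart from the other 6. The probe was lower in triploid than in tetraploid clones by -2.12 (SE 0.27, adjusted p = 0.00739), with its call in 9 of 9 fits. It was higher in tetraploid than in diploid clones by 1.69 (SE 0.27), which was not called (adjusted p = 0.0660). At chr18:5119300-5181600 on R and chr5:14943275-14944205 on F, no triploid array was above background, and the probes were lower than in tetraploid clones by -3.32 and -3.30, at least 2.48- and 2.88-fold, with adjusted p = 0.0457 and 0.0407 and calls in 2 of 9 fits each. Neither was called under normexp (adjusted p = 0.178 and 0.109). Both had passed the filter only through tetraploid clones, where they had to be high.

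**Figure D3:**
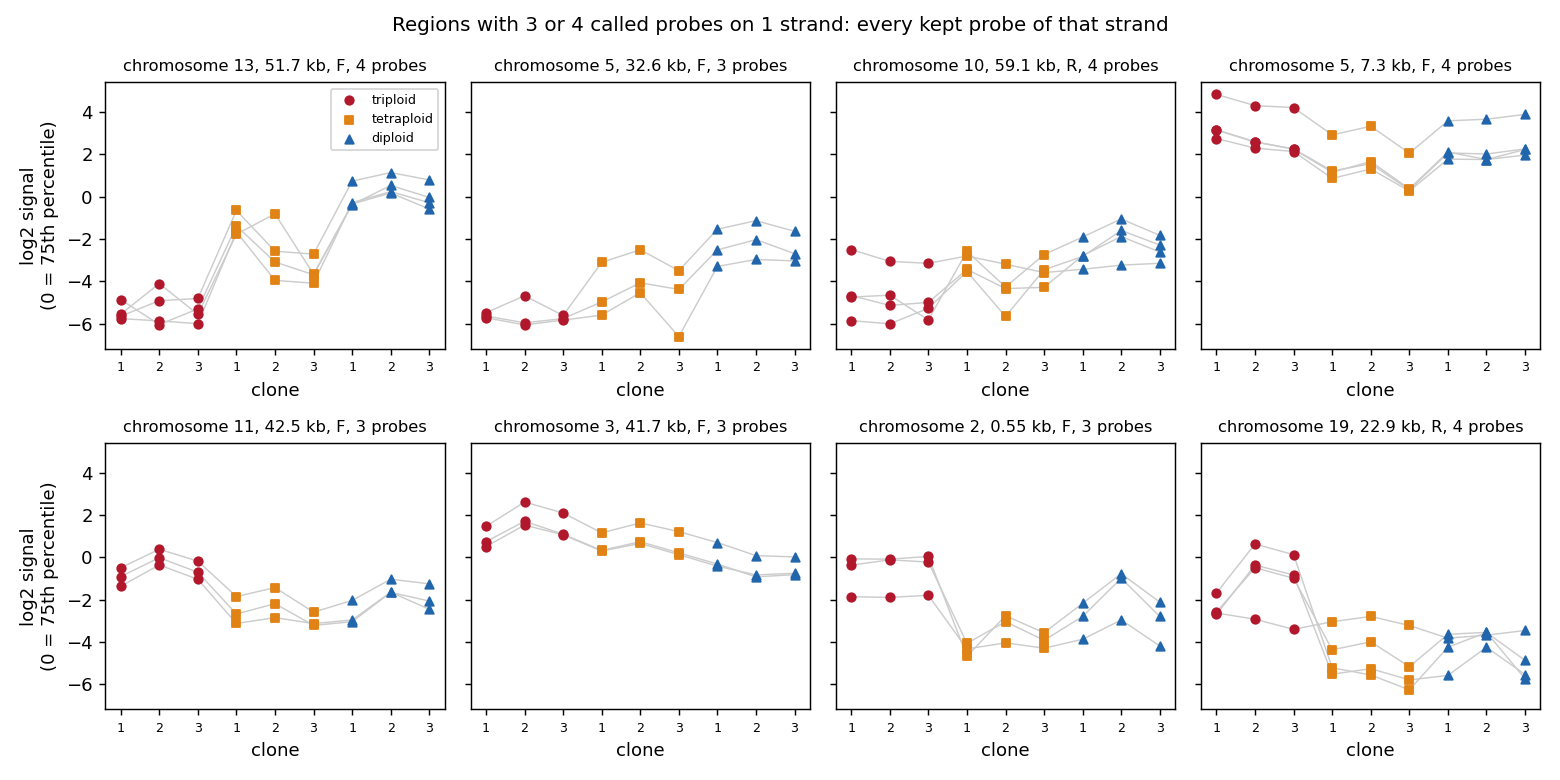
Log2 level (y axis, 0 is the 75th percentile of the array) of every kept probe in each of the 9 clones (x axis) for the 8 regions with 3 or 4 called probes on 1 strand; a grey line joins the values of 1 probe. The chromosome 13 probes lie between -6.04 and -4.10 in triploid clones and between -0.59 and 1.13 in diploid clones, and 1 probe each on chromosomes 10 and 19 departs from the others of its region.

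Between tetraploid and diploid clones, 4 probes were called, all lower in tetraploid clones. That is 0.0939% of the kept probes, against 0.0734% of all features, a share near the background. Of the 4, 3 had passed the filter only through diploid clones, where they had to be high. At an unadjusted p under 0.05 limma gave 580 lower and 124 higher probes, together 16.5% against 14.8% of all features, and no higher probe was called. The split by direction at this unadjusted threshold was not counted over all features. The median difference on the log2 scale was -0.18 for the kept probes and -0.01 for all features. It was -0.15 for the other features without a gene name. Without tetraploid clone 3 the medians were -0.01 for the kept probes and 0.08 for all features, so the kept probes stayed lower. The clones did not overlap at 21.9% of the kept probes, against 22.1% of all features. No probe was called without triploid clone 2, without tetraploid clone 2 or 3, or without diploid clone 1 or 2. Over all features each of those fits called 0 or 1. Without tetraploid clone 1, 2 probes were called, beside 3 of all features.

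The 4 called probes lay at chr10:93975406-93977476 on R, chr4:129497990-129515290 on F, chr10:120336296-120354471 on R and chr19:5798135-5800557 on R. The probe of the first read -5.54, -5.68 and -5.83 in tetraploid clones and -2.92, -1.66 and -3.38 in diploid clones. All tetraploid values were below all diploid values, by -3.03 (SE 0.40), at least 2.24-fold (adjusted p = 0.0463). The second was lower by -2.78 (SE 0.32, at least 2.49-fold, adjusted p = 0.0317) and the third by -2.68 (SE 0.30, at least 2.86-fold, adjusted p = 0.0317). Both chromosome 10 probes were also called lower in triploid than in diploid clones, by -3.31 and -2.82, a comparison that shares the diploid arrays. These 3 probes kept their calls against diploid clones in 2, 3 and 3 of 9 fits for tetraploid clones, and none was called there under normexp (-0.86, -0.82 and -0.77, adjusted p = 0.167, 0.144 and 0.158).

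At chr19:5798135-5800557 on R, 2.42 kb long, all 3 probes were above background on every array. Probe A_30_P01021078 read 3.28, 3.07 and 3.19 in triploid clones, 2.80, 2.53 and 2.34 in tetraploid clones and 3.94, 4.59 and 4.497 in diploid clones. The 3 ploidies did not overlap. The probe was lower than in diploid clones by -1.78 (SE 0.24, adjusted p = 0.0495) in tetraploid and by -1.16 (SE 0.24, adjusted p = 0.0495) in triploid clones. The call held in 0 of 9 fits for tetraploid and in 1 of 9 for triploid clones. The other 2 probes differed by -1.78 and -1.59 in tetraploid and by -1.18 and -1.08 in triploid clones, uncalled.

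Among probes higher in tetraploid than in diploid clones, those with the smallest p were at chr6:126766225-126771309 on F, described above, chr4:11899775-11931875 on R (1.62, SE 0.33, adjusted p = 0.0948) and chr13:73472571-73483846 on R (1.40, SE 0.31, adjusted p = 0.103). None was called. The region chr4:129497990-129515290 was the only one with a called probe on both strands. Against tetraploid clones its F probe was higher in triploid clones by 1.66 (SE 0.32, at least 1.15-fold, adjusted p = 0.0327) and its R probe by 1.504 (SE 0.30, adjusted p = 0.0370), with calls in 4 of 9 fits each and none under normexp (adjusted p = 0.214 and 0.0935).

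Any difference among the 3 ploidies was called at 70 kept probes by limma's F test, 1.64% against 2.38% of all features. Triploid clones had the highest mean at 18 of them, the lowest at 23 and a mean between the other ploidies at 29. Among the 518 features called over the whole array, these counts were 140, 280 and 98. Over the pairwise comparisons 92 probes in 70 regions were called, 14 of them both in triploid against diploid and in triploid against tetraploid clones, which share the triploid arrays. The matching counts over all features were not made, so these counts have no background beside them.

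Probes that lie on the same strand of a region repeated each other's differences more closely than probes on opposite strands. For the first 2 kept probes of 1034 region strands, the triploid minus diploid differences correlated at r = 0.74, the tetraploid minus diploid ones at 0.62 and the triploid minus tetraploid ones at 0.72. For the F and R means of the 415 regions with kept probes on both strands, the values were 0.22, 0.19 and 0.19. Probes of a region share their position and all probes share the arrays, so these are descriptions. The same sign was found in 70.02%, 72.7% and 80.9% of same-strand pairs and in 61.0%, 64.1% and 71.3% of F and R pairs.

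**Figure D4:**
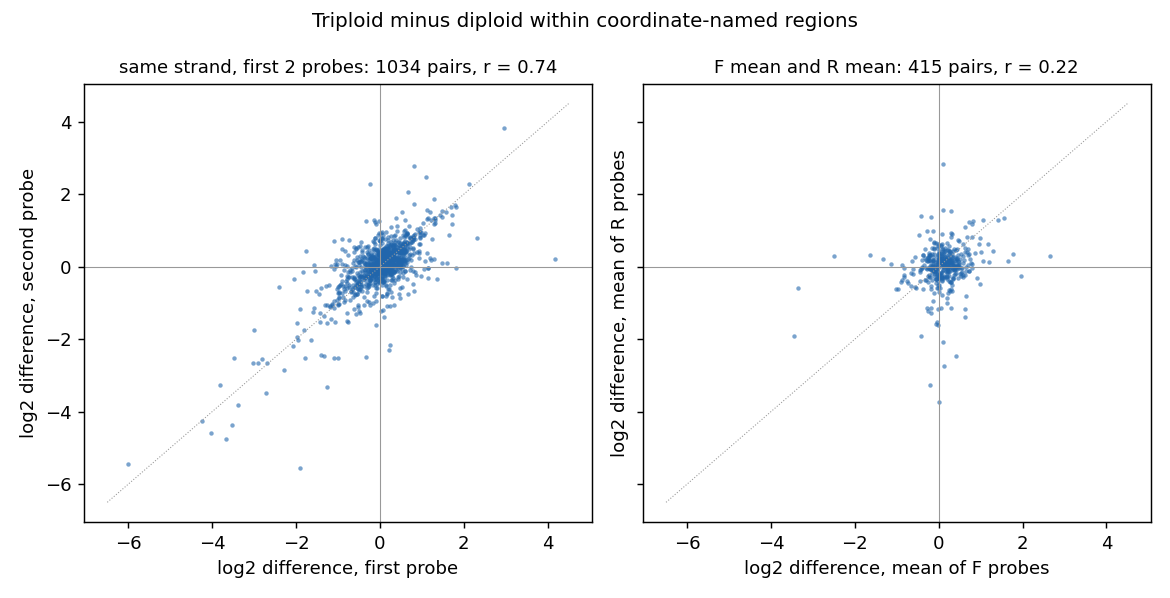
Triploid minus diploid log2 differences of paired probes: left, the first and second kept probe on the same strand of a region (1034 pairs, r = 0.74); right, the mean of the F probes and the mean of the R probes of a region (415 pairs, r = 0.22). The dotted line marks equal values; the left cloud follows it and the right cloud spreads along both axes.

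Kept probes that shared a strand with a called probe but missed the threshold mostly ran the same way. They had its sign in 28 of 31 cases for triploid minus diploid, 13 of 13 for tetraploid minus diploid and 52 of 55 for triploid minus tetraploid. Kept probes on the opposite strand had its sign in 9 of 13, 3 of 4 and 25 of 31 cases. The kept probes as a whole also leaned in a direction. The lower quartile of their triploid minus tetraploid differences was -0.004, and 44 of the 58 calls were higher. For triploid minus diploid the median was 0.09, and 33 of the 48 calls were lower. The agreement in sign that such a lean alone would give was not computed. No region strand was called in both directions within a comparison. One overlap of regions with opposite changes, chosen after its values were seen, was on chromosome 6. There the region chr6:86476240-86513483 on F was higher in triploid than in diploid clones at 1 of 2 probes, by 1.54 (SE 0.31, adjusted p = 0.0478), and the overlapping chr6:86477309-86537554 on R was lower at its 1 kept probe, by -1.27 (SE 0.25, adjusted p = 0.0441).

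Many large mean differences were not called, and some of these rested on part of a ploidy's clones. Of 43 probes that differed by more than 3 on the log2 scale between triploid and diploid clones, 15 were called. The numbers were 14 of 36 between triploid and tetraploid clones and 1 of 13 between tetraploid and diploid clones. In all, 41 probes in 20 regions passed that size in a comparison and were called in none. The matching counts over all features were not made. Not all of these probes had clones that disagreed. At chr16:84708695-84708806 on F, chosen after its values were seen, the tetraploid and diploid clones did not overlap. The difference there was -3.39, at least 3.06-fold lower in tetraploid clones, and was not called (adjusted p = 0.0592). The regions described next were chosen after their values were seen, as those with the most such probes.

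In the region chr15:92174226-92201201 on F, 27.0 kb long, probe A_30_P01020442 read -5.69, 1.66 and 1.13 in triploid clones, -5.72, -5.50 and -6.59 in tetraploid clones and -2.94, -2.54 and 2.32 in diploid clones. Triploid clones 2 and 3 and diploid clone 3 were high and the tetraploid clones and triploid clone 1 were low. All 5 kept probes followed that order of clones, with triploid minus tetraploid differences of 3.27 to 4.97 that were not called (adjusted p of 0.184 to 0.223). Triploid minus diploid differences were 0.09 to 0.49.

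In the region chr3:87757295-87774970 on F, 17.7 kb long, probe A_30_P01020627 read 4.27, -0.56 and -0.72 in triploid clones, 5.87, 7.94 and 4.35 in tetraploid clones and 6.65, 4.73 and 5.41 in diploid clones. Triploid clones 2 and 3 were far below the other 7 arrays, and triploid clone 1 was just below the lowest tetraploid and diploid values. The 4 probes beyond the limit differed from tetraploid clones by -5.47 to -4.32 (adjusted p of 0.0786 to 0.0839) and from diploid clones by -4.76 to -3.66 (adjusted p of 0.108 to 0.131). The remaining kept F probe, A_30_P01026280, was high on every array, with 8.66, 8.20 and 7.78 in triploid clones, 8.14, 8.27 and 7.44 in tetraploid clones and 8.19, 8.18 and 8.62 in diploid clones.

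In the region chr14:20893694-20903726 on R, 10.0 kb long, triploid clone 2 stood alone. Probe A_30_P01025696 read 0.96, -6.02 and 0.78 in triploid clones, 2.76, 3.06 and 2.87 in tetraploid clones and 2.17, 2.81 and 3.50 in diploid clones. The other 2 triploid clones were also below all tetraploid and diploid clones. The 4 kept probes differed from diploid clones by -4.25 to -3.07 (adjusted p of 0.0950 to 0.167). In chr10:83181374-83249774 on F, 68.4 kb long, probe A_30_P01033518 read 3.18, -4.39 and -1.07 in triploid clones, 2.44, 1.28 and 2.16 in tetraploid clones and 2.93, 2.11 and 4.37 in diploid clones. Triploid clone 1 lay among the other ploidies there, and triploid clones 2 and 3 lay below them. Its triploid minus diploid difference of -3.89 was not called (adjusted p = 0.191).

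**Figure D5:**
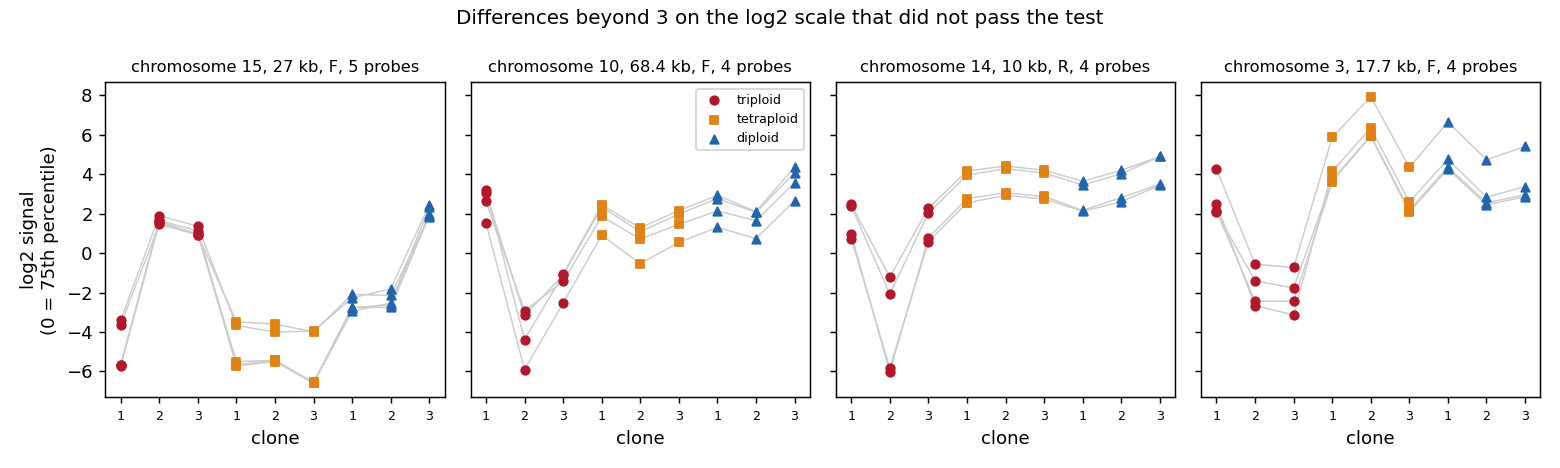
Log2 level (y axis, 0 is the 75th percentile of the array) in each of the 9 clones (x axis) for the 4 regions with the most probes that differed by more than 3 on the log2 scale between ploidies without passing the test; a grey line joins the values of 1 probe. The clones of 1 ploidy lie far apart in each region, such as -5.69, 1.66 and 1.13 in triploid clones on chromosome 15.

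By chromosome, the median triploid minus diploid difference of the kept probes ran from -0.20 on chromosome 10 to 0.20 on chromosome 17. Across the 19 chromosomes these medians correlated with those of the named genes of the same chromosome at r = 0.47, and at 0.48 for tetraploid minus diploid and 0.68 for triploid minus tetraploid. These are descriptions over 19 points that share all arrays. Of the 48 probes called between triploid and diploid clones, chromosome 13 held 7 of its 217 kept probes, 4 of them in the region chr13:15947521-15999246. Chromosome 10 held 6 of its 154 kept probes, 3 of them in chr10:8606683-8665783. Of the 58 called between triploid and tetraploid clones, chromosome 5 held 10 of its 334 kept probes. Chromosome 19 held 4 of its 114 kept probes in both of these comparisons. The share called among all features of a chromosome was not computed.

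Long noncoding RNAs that the array names by gene gave a view beside the coordinate-named regions. Of a list of 60 such names, 26 were tested, 4 were on the array but not kept and 30 had no probe of that name. Between triploid and diploid clones 2 of the 26 fell and none rose, against tetraploid clones 1 fell and none rose in triploid clones, and none was called between tetraploid and diploid clones. Over all features, 1.84%, 2.7% and 0.0734% were called in these comparisons. The median differences over the 26 were 0.09, 0.46 and -0.51 for triploid minus diploid, triploid minus tetraploid and tetraploid minus diploid, beside 0.10, 0.17 and -0.01 over all features. Over all 143 tested features named as long noncoding RNA genes the medians were 0.07, 0.26 and -0.19, with 2, 2 and 0 calls. Hoxa11os, an antisense transcript of the homeobox gene Hoxa11, read -2.85, -3.02 and -3.44 in triploid clones, 5.92, 6.35 and 6.12 in tetraploid clones and 4.96, 3.57 and 6.23 in diploid clones. The triploid clones were far below both other ploidies, by -9.23 (SE 0.55, adjusted p = 0.000155) from tetraploid and -8.02 (SE 0.55, adjusted p = 0.000538) from diploid clones. Dnm3os, an antisense transcript that carries microRNAs, read -1.29, -2.43 and -1.91 in triploid clones, -0.53, -0.99 and -0.54 in tetraploid clones and 0.12, 0.84 and 0.93 in diploid clones. The ploidies did not overlap, and the triploid minus diploid difference was -2.51 (SE 0.34, adjusted p = 0.0133). Of the nuclear RNAs Neat1, a scaffold of paraspeckles, and Malat1, found in nuclear speckles, differences between triploid and diploid clones were -1.27 (adjusted p = 0.111) and -1.33 (adjusted p = 0.118), not called.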

How the data were processed

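RNA of 9 clones was labelled with Cy3 and read on 1-colour Agilent mouse arrays, per the labels' protocols. Per the file headers, the scans were processed in Feature Extraction 10.7.3.1, and the array design refers to mm9. The deposited scanner files give processed signal intensity per spot, background-subtracted by the scanner software and not normalized between arrays. The authors' deposited table of log2 values matched, within 0.001 at 100% of probes, log2 processed signals from which an array's own constant and the value in diploid clone 1 were subtracted, and it served as an alternative.

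Replicate spots that the scanner software had not flagged as outliers were averaged as log2 signals, from which the 75th percentile of the array was subtracted. Probes left without such a spot on any one array were dropped, which removed 83. Of 55681 probes, 25469 well above background on all 3 arrays of a ploidy were kept; named genes were collapsed to their brightest probe, which left 21797 features. The 3 ploidies were fitted together with limma 3.58.1 in R 4.3.3, with Benjamini-Hochberg adjustment over all features. The number of arrays limits the precision. Where no array of a ploidy was well above background, a fold is a bound, which sets the bright ploidy's mean against a floor. Per array of the dim ploidy, the floor is the higher of the probe's own signal and the lowest signal well above background. The code was tested on simulated data.

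The probes named were the largest called differences without overlap (10 per direction for triploid minus diploid, 5 for the others, or the 3 of smallest p), the 8 regions with most called probes, regions called on both strands and neighbouring groups; other probes were chosen after their values were seen, as the text says. The members and lists were chosen with earlier results of these data known. Alternatives covered the scaling, background correction, filter, collapsing of probes, slide, clone number, prior and each array left out. Probes on chromosome X were not analysed here.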

Additional observations from a re-analysis of the deposited data

How the results depend on the processing

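The main counts of called probes were 48 for triploid minus diploid, 4 for tetraploid minus diploid, 58 for triploid minus tetraploid and 70 for any difference, and most alternatives moved them by more than 1.5 times. With the percentile taken over probes detected on every array, limma called 75 for triploid minus diploid, 36 for tetraploid minus diploid and 142 for any difference. Of all features it then called 2.56%, 0.445% and 3.65%. This scaling moved the median difference of all features to -0.05 for triploid minus diploid and -0.14 for tetraploid minus diploid, against 0.10 and -0.01. Quantile normalization gave 0 for tetraploid minus diploid, beside 5 of all features. Normexp background correction, run on median pixel signals, gave 29, 2, 35 and 32, beside 1.83%, 0.0413%, 2.89% and 2.37% of all features. Among named probes it kept 11 of 27, 1 of 4 and 15 of 30 calls. It shrank differences of dim probes. For example, the -6.01 of chr13:15947521-15999246 on F became -2.88 (still called). The -3.31 of chr10:93975406-93977476 on R became -0.84 (not called). Without a filter on background the counts were 18, 0, 15 and 23, beside 0.209%, 0%, 0.402% and 0.311% of all features. With only probes detected on all 9 arrays they were 19 for triploid minus diploid, 24 for triploid minus tetraploid and 36 for any difference. The matching shares of all features were 1.76%, 2.38% and 2.52%. With the slide as a block, which removes diploid clone 1, the counts were 12, 0, 28 and 34, beside 0.372%, 0%, 1.30% and 0.794% of all features. With the clone number as a replicate block they were 27, 0, 35 and 44, beside 1.00%, 0%, 2.13% and 1.67% of all features. Clones of 1 number share no stated origin, however, and their deviations correlated at -0.13 to 0.09. Where limma called 0 probes for tetraploid minus diploid, 735 (quantile), 1112 (no filter), 683 (slide) and 721 (replicate block) had an unadjusted p under 0.05. Leaving out 1 array gave 8 to 171 for triploid minus diploid, 0 to 6 for tetraploid minus diploid, 8 to 131 for triploid minus tetraploid and 12 to 197 for any difference. Over all features the counts moved as well, from 61 to 1434, 0 to 40, 117 to 1312 and 75 to 1461. The cause of these shifts was not tested. Among the calls of named probes, 7 of 27, 0 of 4 and 4 of 30 held in all 9 fits without 1 array (triploid minus diploid, tetraploid minus diploid, triploid minus tetraploid). With the slide block 9 of 27, 0 of 4 and 17 of 30 held, and in every alternative that kept the probe 4 of 27, 0 of 4 and 2 of 30; none changed direction. Where no array of a ploidy was well above background, only the smaller fold given as at least is a bound, not the fitted difference. The 3 arrays a ploidy leave the spread poorly known.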
